A study of Mus musculus with 9 samples.

Results

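PiggyBac (PB) and Sleeping Beauty (SB) libraries made from the same DNA of each mouse medulloblastoma were compared within tumours. A tumour was taken where the authors' sample sheet gave the sample type PT and the arm TAM+ or TAM-, and its PB libraries were paired with its IR libraries, which read the SB ends, by the animal. This gave 119 animals with 480 PB and IR libraries, of 832 libraries and 142 sample sheet names in all. The mice were of the lazy_piggy genotype and had sonic hedgehog (SHH) medulloblastomas, and the TAM+ arm had received tamoxifen while the TAM- arm had not. The TAM+ arm held 72 animals, 53 with the donor chromosome 10 and 19 with the donor chromosome 7, and the TAM- arm held 47 animals, 37 with chromosome 10 and 10 with chromosome 7. Strain, age, dose, the promoters of the transposases and the alleles behind the genotype name are not given in the labels used here. The sequencing was spread over 9 lanes, 7 animals were in 2 lanes, and the animal was the replicate.

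SB and PB are DNA transposons that a transposase cuts out of one place in the genome and inserts in another. SB, of the Tc1/mariner family, inserts at TA dinucleotides, and PB, first found in a moth, inserts at TTAA and usually leaves no scar where it is cut out. Newly mobilised elements tend to land near the donor array, which is called local hopping. An element that disrupts or activates a gene with an effect on growth is carried by every descendant of that cell, so the places hit again and again across tumours are read as candidate genes. SHH medulloblastoma is a tumour of cerebellar granule neuron progenitors, often started by loss of the receptor Ptch1. In a splinkerette library the flank of the element is amplified between a primer in the element and a ligated adaptor. Here the primers lay in the left or right PB end (PBL, PBR) or in the left or right SB end (IRL, IRR). The SB and PB parts belong to 1 construct, so a PB position can come from an element still in its SB place or from one that has moved.

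PB libraries were far shallower than IR libraries. PB counts per animal ranged over 1714, 210907 and 2852891 (lowest, median, highest), and IR counts over 295088, 3107683 and 6337387. The ratio of PB to IR counts in an animal had a median of 0.0591, and IR was the deeper kind in 116 of 119 animals. PBR was the shallowest library, with a lowest of 133, a median of 30653 and a highest of 2063568 counts. Both kinds were called by the same rule. Positions within 10 bp were merged, a site needed at least 10 counts and 1% of the counts of the animal's highest site, and where several animals called a site only the one with the largest share of its counts there kept it. This left 2906 PB sites and 2305 IR sites. Counts come from amplified fragments, so they are not numbers of cells or molecules, and each value rests on the spread between animals.

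The PB and IR libraries of a tumour recorded largely the same places in the genome, at positions a short distance apart. Around a called IR site, the strongest PBL position lay a median of 103 bp away (quartiles 54 and 194 bp, 1399 of 2298 sites with such a position within 1000 bp and of at least 10 counts). The strongest PBR position lay a median of 92 bp away (quartiles 52 and 166 bp, 1186 sites). Within 10 bp lay 2.07% of the PBL and 2.02% of the PBR positions, within 100 bp 48.7% and 54%, and within 500 bp 98.1% and 99.2%. The IRL and IRR positions of an IR site, in contrast, were the same base in 1452 of 1486 sites with both (97.7%). Sites in En2 were not counted in these values. The sources used here do not give which base of a sequenced fragment is listed as the position.

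Where both PB ends were seen they stood mostly on either side of the IR position. Of the 723 IR sites with a PBL and a PBR position, 603 (83.4%) had the IR position between them, with PBL on the side of the lower coordinate in 305 and of the higher in 298. The gap between the PBL and PBR positions of these 603 elements had a median of 265 bp (quartiles 156 and 372 bp). The listed gene was the same as that of the IR position for 602 PBL positions (99.8%) and 603 PBR positions (100%), and the part of the gene for 593 (98.3%) and 595 (98.7%). The listed orientation was not comparable between the kinds: of 245 elements within genes whose ends gave 1 orientation in each kind, the PB orientation was the opposite of the IR orientation in 245 (100%). These come from 279 elements, in which the IR ends gave 1 orientation in 245 (87.8%) and the PB ends in 277 (99.3%). The Ppp1r12a element given below is listed in the orientation of the gene in both kinds and is not among the 245. Shares of sites in the orientation of the gene are therefore given below without reading a direction from them.

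Single elements with large shares of the counts show the layout (coordinates of mm9). In a TAM+ tumour, an intron of Lrp1, which encodes an endocytic receptor, held 93% of the IR counts at chr10:127030270, with PBL at 127030112 (3677 counts) and PBR at 127030292 (5159 counts). The called PB sites there held 93.2% of the PB counts of that animal. In a TAM- tumour, an intron of Ano1, a calcium-activated chloride channel, held 69.2% of the IR counts at chr7:151803434, with PBL at 151803262 and PBR at 151803573, and 48.1% of the PB counts. In another TAM- tumour, an exon of Prickle2, a planar cell polarity gene, held 55.9% of the IR counts at chr6:92325552, with PBL at 92325668 and PBR at 92325440, and 17.8% of the PB counts. In the Prickle2 element PBL lay at the higher coordinate, and in the Lrp1 and Ano1 elements at the lower. An intron of Ppp1r12a at chr10:107607535 held 54.2% of the IR counts of a TAM+ tumour and 32.6% of its PB counts. There PBR at 107607502 had 174691 counts and PBL at 107607610 had 28, so 1 end alone passed the site call.

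**Figure D1:**
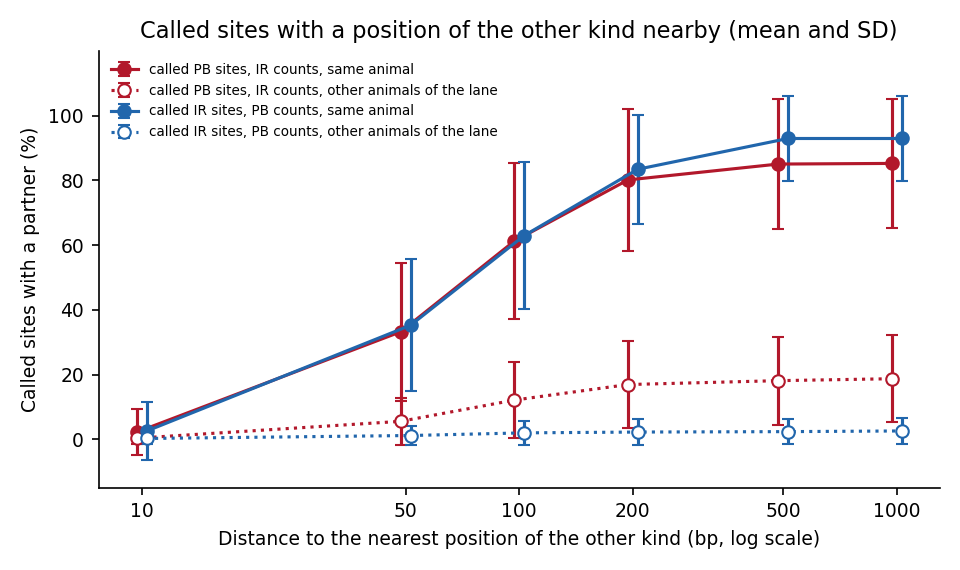
Mean share of called sites of an animal (vertical axis, percent, bars SD over 119 animals) with a position of the other kind of at least 10 counts within the distance on the horizontal axis (bp, log scale), PB sites in red and IR sites in blue. Filled points are the same animal and open points other animals of the same lane; the same-animal shares climb between 10 and 500 bp and stay level to 1000 bp.

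A PB site had IR counts in the same animal close by in most cases. Of the called PB sites of an animal, 68.2 ± 23.1% had an IR count within 100 bp, 85.4 ± 19.6% within 500 bp and 85.6 ± 19.4% within 1000 bp (mean and SD, n = 119). Of the called IR sites, 71.3 ± 21.4% had a PB count within 100 bp, 96 ± 10.7% within 500 bp and 96.1 ± 10.7% within 1000 bp. The same measure against other animals of the lane gave 34.4% at 100 bp and 53.5% at 500 bp for PB sites, and 7.73% and 11.1% for IR sites. With at least 10 counts required of the other kind, PB sites had an IR position within 500 bp in 85 ± 20% in the same animal and in 18.1 ± 13.6% in other animals, and IR sites had a PB position in 92.9 ± 13.1% and 2.36 ± 3.97%. A distance of 100 bp thus left out partners that a distance of 500 bp held, and both are given. The shares within 500 bp were 85.4 ± 21.8% in TAM+ and 85.3 ± 15.8% in TAM- animals for PB sites (permutation p = 0.991), and 95 ± 13.2% and 97.5 ± 4.63% for IR sites (permutation p = 0.227).

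Sites with over 5% of the counts nearly all had a partner. Of 359 PB sites with over 5% of the PB counts of their animal, 354 (98.6%) had an IR count within 500 bp. Of 507 IR sites with over 5% of the IR counts, 499 (98.4%) had a PB count within 500 bp. With over 1% of the counts, the figures were 818 of 909 PB sites (90%) and 994 of 1010 IR sites (98.4%). Among PB sites of up to 0.5% of the counts the figure was 1023 of 1576 (64.9%), and among IR sites of that size 712 of 1051 (67.7%). These figures pool animals, and the IR figure leans on 1 TAM+ animal with 332 IR sites, the most of any. Of its IR sites 9.94% had a PB count within 500 bp, while the median animal had one for 100%. The 5 PB sites of over 5% of the counts that lay further than 1000 bp from an IR count included an intronic site of Efcab6 at chr15:83704365 in a TAM- tumour with 77.1% of the PB counts. The nearest IR count of that animal was 187 kb away. Another was a site with no listed gene at chr8:118588756 in a TAM+ tumour with 36.3% of the PB counts. The 7 IR sites of over 5% of the counts with no PB count within 1000 bp included 3 on chromosome 13, the largest at 68591965 with 22.5% of the IR counts and no listed gene.

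The ranking of sites was similar but not the same. The highest PB site of an animal lay within 500 bp of its highest IR site in 57 of 119 animals (47.9%), within 500 bp of 1 of the 3 highest IR sites in 94 (79%), and within 500 bp of some IR count in 116. At 100 bp the highest sites of both kinds met in 46 animals (38.7%). Over the elements seen in both kinds, the Spearman rank correlation of PB share and IR share within an animal had a median of 0.699 and ran from 0.304 to 0.972 in the 44 animals with at least 10 such elements. This is a description of elements of 1 tumour, which share libraries and depth.

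The highest site held a larger share of the counts in PB than in IR libraries. This highest site held 1.52, 32.1 and 84.2% of the PB counts (lowest, median and highest animal) and 0.871, 22.8 and 93% of the IR counts. The ranges overlap almost fully, and the difference lies within animals: the mean was 35 ± 18.5% in PB and 26.5 ± 15.2% in IR, a difference of 8.53 percentage points (SE 1.56, n = 119), with PB higher in 88 animals and IR in 31. The two-sided sign-flip permutation test gave p = 1e-05, the smallest that 100000 resamples can give, and 0.00011 after Benjamini-Hochberg adjustment over 11 measures. Over animals sequenced in 1 lane, the difference was positive in 8 of 9 lanes. Over all animals it was 10.2 percentage points in TAM+ animals and 5.94 in TAM- animals, and these did not differ from each other past the threshold (permutation p = 0.178, adjusted 0.842). The difference was 4.23 percentage points, with an adjusted permutation p of 0.178, where the right ends alone were set against each other.

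The number of called sites did not differ past the threshold, and its direction depended on the measure. Animals had 1, 12 and 187 PB sites and 1, 12 and 332 IR sites (lowest, median, highest). The mean was 24.4 ± 33 in PB and 19.4 ± 33.5 in IR, a difference of 5.05 (SE 2.79, permutation p = 0.0735, adjusted 0.162), while PB had more sites in 47 animals and fewer in 66. Counted as loci with sites within 500 bp joined, PB had 2749 and IR 2260. The count turned with the site call: at 5% of the highest site PB had 7.24 sites and IR 9.34 per animal, a difference of -2.1 with an adjusted permutation p of 0.00011.

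**Figure D2:**
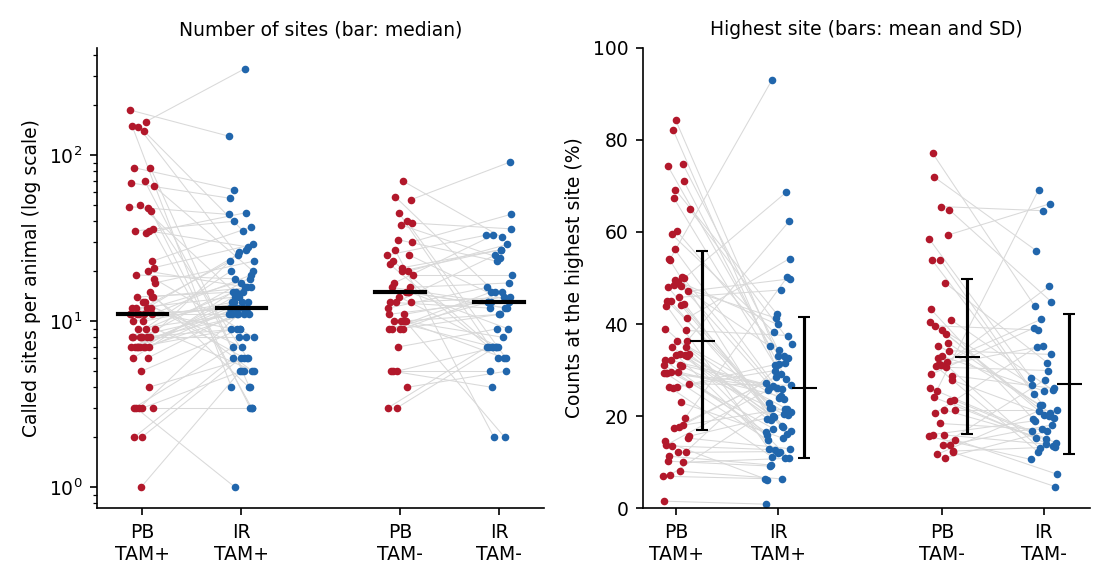
Called sites per animal (left, log scale, black bars medians) and percent of the counts at the highest site (right, black bars mean and SD) for PB (red) and IR (blue) libraries of 72 TAM+ and 47 TAM- animals; grey lines join the 2 kinds of 1 animal. The site numbers overlap with medians close together, and most lines in the right panel fall from PB to IR.

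The shares of sites by their place relative to genes did not differ past the threshold. Over the 99 animals with at least 5 called sites in each kind, 46.5 ± 17.1% of PB sites and 43.7 ± 15.9% of IR sites were intronic, 3.17 ± 4.92% and 2.81 ± 6.43% exonic, 16 ± 11.4% and 16.5 ± 11.5% upstream, and 15 ± 11.5% and 14.9 ± 10.6% downstream of the listed gene. No gene was listed for 19.3 ± 10.7% of PB and 22 ± 12.1% of IR sites. None of these 5 shares differed past the threshold after adjustment over the 11 measures. The nearest were the intronic share (2.83 percentage points, SE 1.25, p = 0.0254, adjusted 0.093) and the share with no listed gene (-2.7, SE 1.08, p = 0.0145, adjusted 0.0797), both from the sign-flip permutation test. Both passed under some other settings and lost or changed their sign under others, as given in the closing section. Sites outside genes lay a median of 40.5 ± 35.2 kb from the listed gene in PB and 42.6 ± 58.1 kb in IR (mean and SD of the animals' medians, n = 92).

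The effect on the gene that the authors list did not differ past the threshold either. Of sites in gene bodies, 78.3 ± 20.8% in PB and 81.6 ± 17.5% in IR were listed as disrupting the coding sequence (difference -3.26, SE 1.66, n = 96, permutation p = 0.0514, adjusted 0.141). PB was lower in 50 of these animals, higher in 21 and equal in 25. The table's orientation column gave 46.3 ± 25% of PB sites and 50.2 ± 22% of IR sites in the orientation of the gene. With the listed PB orientation turned, as the 245 elements above give it, the PB share was 53.7 ± 25%. No difference between the kinds is read from this column.

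The spread between the ends of 1 kind gives a scale for these differences. With each end called alone, PBL minus PBR was 2.23 percentage points for the intronic share (n = 86) and IRL minus IRR was -3.31 (n = 79), against the 2.83 between kinds. For the share with no listed gene the ends differed by -0.78 in PB and -0.692 in IR, against -2.7 between kinds. These values between kinds come from both ends called together, so they are not like for like. With 1 end alone, the no-gene share differed between kinds by -0.179 at left ends (n = 79) and -2.44 at right ends (n = 90). The intronic share differed by 3.36 and 0.893 in the same order. None of the differences between ends passed after adjustment over 12 measures. The nearest was the donor chromosome share, 29.2 ± 15.8% at PBL and 23.8 ± 13% at PBR (difference 5.33, permutation p = 0.00823, adjusted 0.0988).

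**Figure D3:**
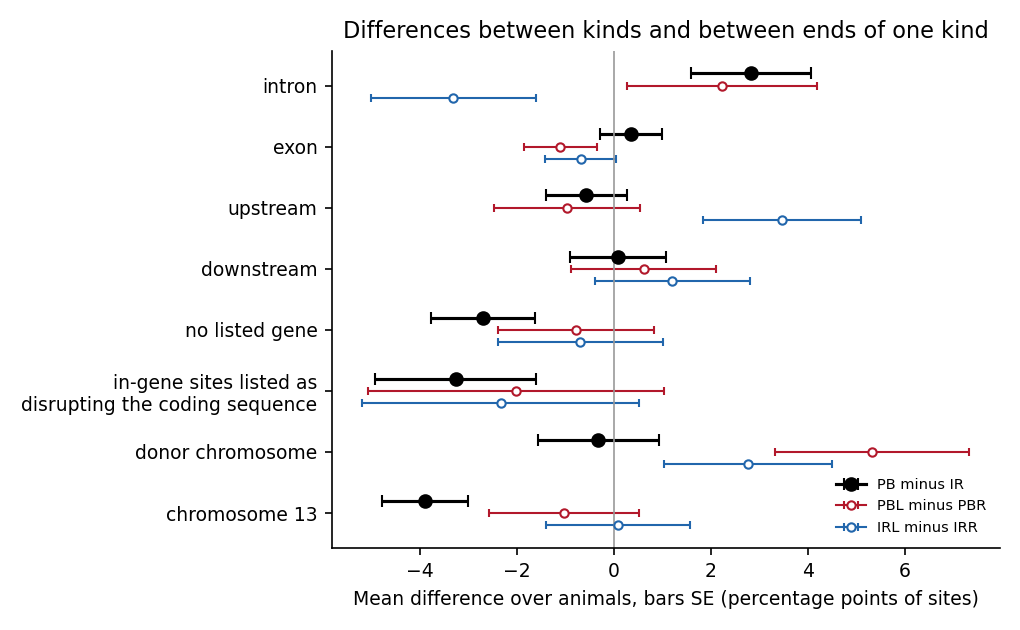
Mean difference over animals (horizontal axis, percentage points of called sites, bars SE) for PB minus IR (black), PBL minus PBR (red) and IRL minus IRR (blue), one row per measure. The chromosome 13 share lies at -3.89, the lowest black point of the 8 rows drawn (the orientation share is not drawn), while the ends of 1 kind differed there by -1.03 in PB and 0.0863 in IR. Black points have both ends called together, the others each end alone. With 1 end alone, PB minus IR for chromosome 13 was -2.18 (left) and -2 (right).

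The share of sites on the donor chromosome did not differ past the threshold. It was 26 ± 13.1% in PB and 26.3 ± 14.8% in IR (difference -0.321, SE 1.24, n = 99, permutation p = 0.797, adjusted 0.877). In the 74 animals with donor chromosome 10, chromosome 10 held 26.7 ± 13.9% of PB and 26.8 ± 14.6% of IR sites, and chromosome 7 held 4.31% and 4.13%. In the 25 animals with donor chromosome 7, chromosome 7 held 24.1 ± 10.6% of PB and 25 ± 15.6% of IR sites, and chromosome 10 held 5.62% and 3.66%. The chromosome that carries the donor thus led in both kinds and in both groups of animals. With weaker sites included, at 0.1% of the highest site, the donor share was 23.4% in PB and 28% in IR (difference -4.56, adjusted permutation p = 5.5e-05, n = 118).

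Of 20 chromosomes, 1 (5%) held a different share of sites in PB and IR after adjustment over the chromosomes. Chromosome 13 held 0, 7.69 and 50% of the PB sites and 0, 12.5 and 44.4% of the IR sites of an animal (lowest, median, highest). The distributions overlap, and the mean was 9.86 ± 10.5% in PB and 13.7 ± 11.1% in IR, a difference of -3.89 percentage points (SE 0.881, n = 99). PB was lower in 61 animals, higher in 24 and equal in 14, and the sign-flip permutation test gave p = 1e-05, adjusted 0.0002. Over animals sequenced in 1 lane, the mean was lower in PB in 9 of 9 lanes. It was lower with donor chromosome 10 (-3.64, 74 animals, permutation p = 0.00041) and with donor chromosome 7 (-4.62, 25 animals, permutation p = 0.0118). The call was lost under other settings: with sites of at least 5% of the highest site it was 0.209 (adjusted permutation p = 0.928), and in the 55 animals with at least 10 sites in each kind it was -1.67 (adjusted permutation p = 0.654). With sites weighted by their counts it was -2.42 (adjusted permutation p = 0.658). With left ends alone it was -2.18 (adjusted permutation p = 0.301) and with right ends alone -2 (adjusted permutation p = 0.313).

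Along chromosome 13 the largest difference was in the 10 Mb from 60000001 to 70000000, with 1.58 ± 3.62% of sites in PB and 3.1 ± 5.36% in IR. This was a difference of -1.52, against -3.89 for the whole chromosome. With the stretch left out, chromosome 13 still passed the threshold. That stretch was called in 24 animals in PB and 40 in IR. No gene was listed for 7 of 42 PB sites and 16 of 57 IR sites there. Pooled over animals, 220 of 240 IR sites on chromosome 13 (91.7%) had a PB count within 500 bp and 135 (56.2%) a called PB site. On the other chromosomes, 1716 (83.1%) and 1108 (53.7%) of 2065 IR sites had one. These pooled shares lean on 1 animal with 332 IR sites, of which 9.94% had a PB count within 500 bp. They were not compared within animals. By arm, the chromosome 13 difference was -5.55 ± 9.42 in 58 TAM+ animals and -1.53 ± 7.23 in 41 TAM- animals. These differed by -4.02, with a permutation p of 0.0237 and 0.475 after adjustment over the 20 chromosomes, and this comparison was chosen after the values were seen. Of the 11 other measures, 0 differed between the arms after adjustment, with the lowest adjusted permutation p at 0.842.

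**Figure D4:**
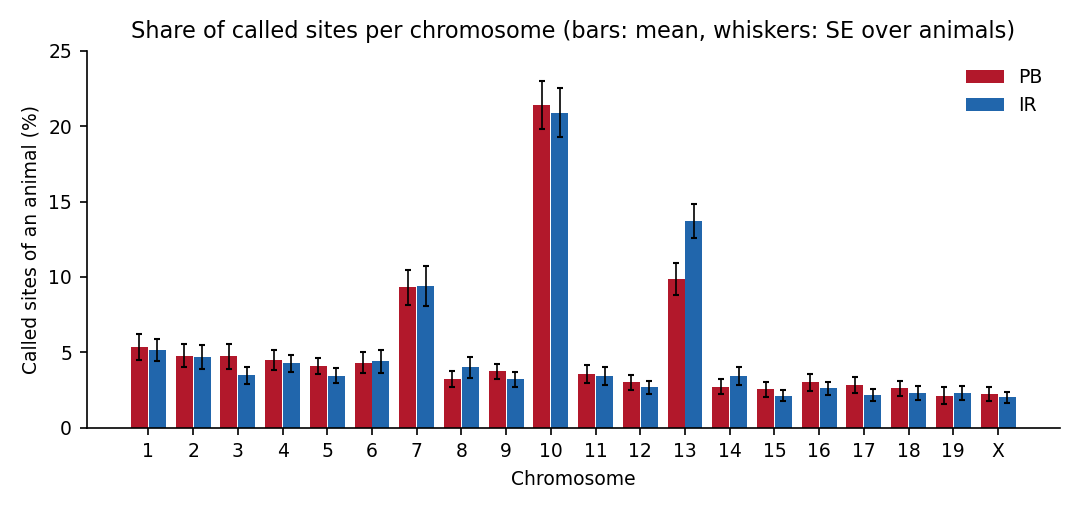
Percent of the called sites of an animal on each chromosome (bars mean, whiskers SE, 99 animals) in PB (red) and IR (blue). Chromosomes 10 and 7, which carry the donor arrays, stand out in both kinds, and chromosome 13 is lower in PB.

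The genes hit were largely shared. An animal had 18.2 ± 25.6 genes with a called site in PB and 14.5 ± 26.8 in IR. Of its PB genes, 68.6 ± 31.7% were also called in its IR libraries, and of its IR genes 65.4 ± 21.9% were called in its PB libraries (n = 119), while the IR libraries of other animals of the lane held 1.4 ± 1.99% of its PB genes, where each site had been kept in 1 animal per kind. Over all animals, 1749 genes were called in PB, 1417 in IR and 879 in both. Most stood in 1 animal, 1512 in PB and 1250 in IR.

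Of the 68 genes called in at least 3 animals in either kind, 0 (0%) differed between PB and IR by the exact McNemar test after Benjamini-Hochberg adjustment, and 0 had an unadjusted p under 0.05. In 40 of them PB had more animals, in 21 IR had, and 7 were equal. Without adjustment, the smallest number of discordant animals with which the exact McNemar test can go below the threshold is 6 (exact p = 0.0312). Of the 68 genes, 10 had at least that many, and the others could not pass. After adjustment over the 68 genes, a gene that stands alone needs more discordant animals than 6. The 0 thus says little about single genes. Of 51 windows of 100 kb called in at least 3 animals, 0 (0%) passed, with 0 at an unadjusted p under 0.05.

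Ppp1r12a and Otogl, both on chromosome 10, were called in the most animals in each kind. Of the animals with a call in either kind, 21 of 34 had Ppp1r12a in both and 17 of 35 had Otogl in both. Ppp1r12a, which encodes the targeting subunit of myosin phosphatase, was called in 29 animals in PB and 26 in IR. Otogl, an otogelin-like gene of the inner ear, was called in 25 in PB and 27 in IR. Syt1, the calcium sensor of synaptic vesicle release, had 16 in PB and 10 in IR, with 7 in both (exact McNemar p = 0.146, adjusted 1). Nav3, a neuron navigator that binds microtubules, had 13 in PB and 11 in IR. Lin7a, a synaptic scaffold, had 10 and 6. Ppfia2, liprin alpha 2, had 8 and 9. Pawr, a regulator of apoptosis, had 7 and 9 with 2 in both. Ptprq, a receptor phosphatase of hair cells, had 7 and 7 with 6 in both. Ppp1r12a and Otogl sites made up to 60.2% and 29.1% of the PB counts of an animal, and up to 54.2% and 39.1% of its IR counts.

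In Ppp1r12a, Otogl and Syt1, introns held the most sites in both kinds. The 2 PB ends of an element can be called as 2 sites, as in the Lrp1 element above. The numbers here are thus of sites and not of elements. The 53 PB sites listed under Ppp1r12a were 30 intronic, 1 exonic, 13 upstream and 9 downstream, and the 38 IR sites were 17, 1, 10 and 10. The 39 PB sites of Otogl were 29 intronic, 1 exonic and 9 upstream, and the 36 IR sites were 26, 1 and 9. Of the 27 PB sites of Syt1, 25 were intronic, and of its 13 IR sites 13 were. Lin7a differed from these, with 6 intronic of 13 PB sites and 0 intronic of 7 IR sites. Of all 15 genes of the chromosome 10 neighbourhood list, 15 were called in PB and 15 in IR, in 59 animals in PB and 61 in IR, 48 of these in both. The median difference in animals between PB and IR was 0 over the 15 genes, and 1 over the 12 that were tested, as over all 68 tested.

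Besides Syt1 and Lin7a (exact McNemar p = 0.219), the genes with the lowest p-values had few animals. Tmtc2, a mannosyltransferase of the endoplasmic reticulum on chromosome 10, was called in 7 animals in PB and 2 in IR (1 in both, exact McNemar p = 0.125, adjusted 1). Acss3, an acyl-CoA synthetase of mitochondria, had 6 in PB and 2 in IR (p = 0.219 by the same exact test). Camta1, a calmodulin-binding transcription activator, had 3 and 0, and 4921528I01Rik had 4 and 1. Atp2b1, a plasma membrane calcium pump, had 0 in PB and 3 in IR, and Klf6, a zinc-finger transcription factor on chromosome 13, also 0 and 3. Camta1, 4921528I01Rik, Atp2b1 and Klf6 each had an exact McNemar p of 0.25. Ties were taken by symbol, and the genes at this p left unnamed all had more animals in PB. Zfp934 on chromosome 13 had 2 in PB and 4 in IR. On chromosome 7, Plekhb1 had 7 and 6 animals, Fam168a 7 and 6, Rab6a, a GTPase of the Golgi, 4 and 5, and Odz4, a teneurin, 4 and 3. A gene called in 1 kind alone often had some count of the other kind nearby: over the tested genes, 84 of 135 such calls in PB (62.2%) had an IR count within 500 bp, and 73 of 90 in IR (81.1%) a PB count. A single count was enough here. Other animals of the lane had one within 500 bp of a mean of 53.5% of all PB sites and 11.1% of all IR sites. Each site was kept in 1 animal per kind, so such counts need not lie below the call.

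En2, Foxf2 and Sfi1 are listed apart because earlier analysis of these data marked them as open to wrong mapping. En2, an engrailed homeobox gene whose splice acceptor is used in gene traps, was called in 3 animals in PB and 7 in IR, with 0 in both, again with each site kept in 1 animal per kind. Its sites in both kinds fell between 28496384 and 28496775 on chromosome 5. All 4 of its PB sites and 6 of its 7 IR sites were spread over at least 3 animals with no animal over 50% of the counts. Foxf2, a forkhead gene on chromosome 13, had 1 animal in PB and 4 in IR, and Sfi1, which encodes a centrin-binding protein, had 3 and 3. Such spread sites were 43 of 2906 in PB (1.48%) and 20 of 2305 in IR (0.868%).

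**Figure D5:**
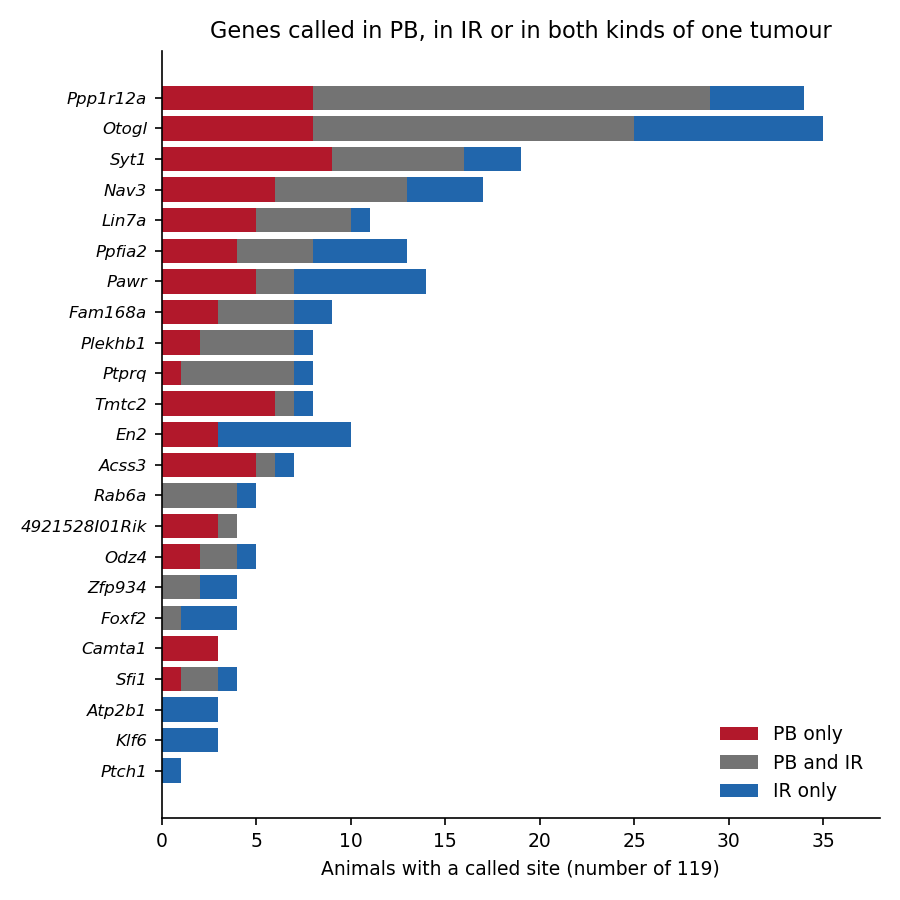
Number of animals (horizontal axis, of 119) with a called site in PB only (red), in both kinds (grey) and in IR only (blue) for the named genes with any call. Ppp1r12a and Otogl have the longest bars, with grey parts of 21 of 34 and 17 of 35 animals, and En2 has no grey part.

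Of 13 genes of the SHH pathway, 3 were called in PB and 5 in IR, in 3 and 5 animals. Over all 22095 genes listed in these libraries, 7.92% were called in PB and 6.41% in IR in at least 1 animal, with no regard to gene length. Of the 13 genes, none reached the 3 animals needed for a test. Gli3, a transcription factor of the pathway that acts mostly as a repressor, was called in 2 animals in PB and the same 2 in IR, with up to 9.89% of the PB and 43.9% of the IR counts. Smo, the signal transducer, was called in 1 tumour in both kinds, with PB at 29691574 and IR at 29691709 on chromosome 6, and with 0.966% and 4.9% of the counts. Hhip, a hedgehog-binding inhibitor, was also called in 1 tumour in both. Ptch1, the receptor that holds Smo back, was called in 0 animals in PB and 1 in IR, in an intron with 0.142% of the counts, and that animal had PB counts within 500 bp. Gli2 had 0 in PB and 1 in IR.

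Of 95 potassium channel genes (symbols starting with Kcn) 16 were called in PB and 12 in IR, 9 of them in both kinds, in 15 and 10 animals, beside the same 7.92% and 6.41% over all listed genes. Kcnb2 was called in 0 animals in either kind. Kcnc2, a voltage-gated channel on chromosome 10, held the largest share, 19.4% of the PB counts at 111768659 and 17.5% of the IR counts at 111768596 in the same tumour. Kcnj8, Kcnn2, Kcnn3 and Kcnq5 were likewise called at matching places in 1 tumour each. Kcnn2, a calcium-activated channel, held 2.67% and 2.73%, Kcnn3 3.12% and 1.48%, Kcnq5 2.87% and 1.02%, and Kcnj8, an inward rectifier, 2.96% and 0.845%. Kcnh2, of the ether-a-go-go family, was called in 2 animals in PB and 0 in IR. No potassium channel gene was called in 3 animals of either kind.

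PB sites with no IR count within 500 bp were 766 of 2906 (26.4%), in 68 animals. They held 1.95% of the PB counts, with a median of 72.5 counts a site, against 1096 for the 2140 sites with an IR count. The 5 animals with the most of them held 51.8%. In the 34 animals with at least 3 sites of each class, the donor chromosome held 15.5 ± 15.2% of the PB sites without an IR count and 33.6 ± 15.3% of those with one. This difference of -18 percentage points (SE 3.44, lower in 29 animals and higher in 3) had a permutation p of 4e-05, adjusted 0.00024 over 6 shares. No gene was listed for 11.6 ± 10.5% of the sites without an IR count and 19.7 ± 14.5% of those with one (difference -8.12, SE 3.3, permutation p = 0.0164, adjusted 0.0492). The intronic share was 50.9 ± 18.6% and 47.2 ± 16.8%, with an adjusted permutation p of 0.527. With the classes set at 100 bp in 73 animals, the donor share was 23.7 ± 18% and 29.4 ± 17.9% (difference -5.75, adjusted permutation p = 0.13), and no share passed. The 500 bp distance was chosen after the distances between PB and IR positions were seen. A lower depth moves with the class, and its part in the result was not tested. A single IR count was enough for the class, and other animals of the lane had one within 500 bp of a mean of 53.5% of PB sites. Pooled over all animals, 85.2% of PB sites on chromosome 10 and 79.9% on chromosome 7 had one. High shares were not limited to these, with 86.4% on chromosome 13 and 80.4% on chromosome 19. The remaining chromosomes ran from 60.7% to 76.4%. The part of the density of IR counts on a chromosome was not tested. With at least 10 IR counts required within 100 bp, the donor share did not pass. Counts of the JX libraries, which read the boundary of the SB and PB parts, lay within 500 bp of 0.522% of the PB sites without an IR count in the same animal and of 0.404% in other animals.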

How the data were processed

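Tumour DNA was sheared, joined to splinkerette adaptors, cut with BamHI and amplified from SB ends (IR libraries) or PB ends (PB libraries), per the labels' protocols. The deposited table holds raw counts per position and library, made by the authors with no scaling, and lists a gene, its part and an effect. Per the submitters' processing notes, positions are of mm9. The sources used here do not give the aligner, counting rule, filters or gene annotation. The whole table holds 3961094 lines and 555006105 counts.

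Arm, donor chromosome, lane and end came from the authors' sample sheet. PB and IR are paired because both come from the DNA of 1 animal. Libraries of an ID found in 2 spellings, with a zero in front and without, were joined, and 2 IDs with conflicting arms were left out. Counts off the main chromosomes (0.105%) were dropped. Both ends and repeat lanes were summed. Shares were compared over animals with at least 5 called sites in each kind by two-sided sign-flip permutation tests, arms by two-sided permutation tests (100000 resamples each), and genes and 100 kb windows called in at least 3 animals by the two-sided exact McNemar test, each with Benjamini-Hochberg adjustment and a threshold of 0.05. Python 3.11.15, NumPy 2.4.6, pandas 2.3.3 and SciPy 1.17.1 were used, and the tests were tried on simulated data.

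Named genes were the 10 in the most animals in each kind, the 8 with the lowest p, the 5 called most often in 1 kind alone in each direction, up to 4 list members called in at least 3 animals, and Ptch1 and Kcnb2. Ties were taken by symbol. Genes of the SHH pathway and potassium channel lists called in fewer animals, and the genes of single large elements, were named after their values were seen. Members, lists and tests were chosen with earlier results of these data known. The effect on the coding sequence and the chromosome 13 comparisons were added after the data were seen. Alternatives covered the site call, merging, credit, ends, depth, donor chromosome, animals, weights, matching distance and the listed orientation. No sequence is printed, since no genome of the files' build was used.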

Additional observations from a re-analysis of the deposited data

How the results depend on the processing

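Of 310 values from 22 alternatives, 242 were counted as kept. Some of these could hardly change, so the tally is not a measure of how firm the results are. The highest-site difference was 8.53 at each of the 3 site calls, since the highest site passes them all. Genes and windows were tested in pairs in the unpaired setting too. A number that was 0 and stayed 0 also counts as kept. For differences this means the same direction and side of the threshold, and for numbers past the threshold an equal number. A share of sites with a partner was counted as kept when it moved by less than its SD over animals. The share of PB sites with an IR count within 100 bp was thus counted as kept at 46.7% with the site call at 0.1%, against 68.2%. Leaving the spread positions out, thinning the deeper kind and leaving the donor chromosome out kept all values in this sense. The partner minimum of 10 counts, the removals of 3 loci and of chromosome 13 from 60 to 70 Mb, the turned orientation and the 500 bp settings were chosen after seeing the data. The count of genes past the threshold was 0 in each setting in which it was run, by the exact McNemar test; at an unadjusted p under 0.05 it was 25 of 2374 with the site call at 0.1%. Differences below are PB minus IR, shares in percentage points, with causes not tested.

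With a site call at 0.1% of the highest site, the intronic share (2.27, adjusted permutation p = 0.0279), the exonic share (1.05), the share with no listed gene (-2.45) and the donor share (-4.56) passed, 4 chromosomes passed, 1 share of PB sites without an IR count passed, and the downstream share (-0.168) and the gene orientation share (0.993) turned. At 5%, the site number (-2.1), the upstream (0.316), downstream (-1.62) and no-gene (0.138) shares and chromosome 13 (0.209) turned, and 0 chromosomes passed. Merging within 100 bp turned the upstream (0.0866) and downstream (-0.633) shares. Merging within 500 bp turned the upstream share (0.229), and the no-gene share passed (-2.79). With a site kept in every animal that called it, the intronic (-0.267), upstream (0.614) and donor (0.823) shares turned, the orientation share (-9.46) and the coding-sequence share (-3.35) passed, and 2 chromosomes passed. The orientation share compares opposite listings, and with the PB listing turned it was 3.52 with the reported settings and -1.21 here.

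With left ends only, the site number (11.7) and the intronic share (3.36) passed, the downstream share (-2.18), the orientation share (0.204) and the distance to genes (1.48 kb) turned, chromosome 13 no longer passed (-2.18) and 0 chromosomes did. With right ends only, the site number (-6.31), the upstream (0.964) and downstream (-0.793) shares and the distance (4.88 kb) turned, the highest-site share (4.23) and chromosome 13 (-2) no longer passed, 0 chromosomes did, and 1 share of PB sites without an IR count did. In animals of 1 lane without the animal with the most sites, the site number (6.56), intronic share (3.47) and no-gene share (-2.76) passed and the downstream share (-0.201) turned. With at least 1 site in both kinds the upstream (0.0631) and orientation (0.818) shares turned. With at least 10, the intronic (-0.207), upstream (0.0106), downstream (-0.528) and donor (0.734) shares turned, the exonic (1.14) and coding-sequence (-4.59) shares passed, chromosome 13 did not (-1.67), and 0 chromosomes did. With sites weighted by counts, chromosome 13 no longer passed (-2.42, adjusted permutation p = 0.658) and 0 chromosomes did. Leaving out chromosome 13 from 60 to 70 Mb turned the downstream share (-0.16), and chromosome 13 still passed. Leaving out En2, Foxf2 and Sfi1 turned the downstream share (-0.0366), and the no-gene share passed (-2.92).

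Without the pairing by animal (no replicate block), the chromosome 13 difference was the same -3.89 with an adjusted permutation p of 0.249, 0 chromosomes passed, and no other per-animal measure changed its call. Genes and windows were still tested in pairs in this setting. The comparisons of arms and of PB sites with and without an IR count were not run unpaired. Matching within 10 bp gave PB sites a partner in 3.28% and IR sites in 3.88%, and IR sites had one in 96% at 500 bp and 96.1% at 1000 bp. At 500 and at 1000 bp, 2 shares of PB sites without an IR count passed, against 0 at 100 bp. With at least 10 IR counts required within 100 bp, 1 share did, the downstream one. A called site needs 10 counts in each kind, and PB was the shallower kind in 116 of 119 animals, which limits what a missing PB site shows.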
